A study of Mus musculus with 12 samples.

Results

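The genes described here are the 42 that build the kinetochore and run the spindle checkpoint, taken by symbol from a hand-written list, and all 42 were found among the 24881 gene symbols of the expression table. They fall into 10 checkpoint genes, 12 genes of the inner kinetochore, 10 of the outer kinetochore, 6 mitotic kinases and passenger complex genes, and 4 motor and corona genes. RNA-seq was carried out on R1 mouse ESCs expressing FUCCI, fluorescent reporters whose colour tells the cell cycle phase, and in every group the cells were sorted in G1 phase before RNA was extracted. The 4 groups were WT and P53-/- ESCs cultured with serum and LIF, and WT and P53-/- ESCs cultured in 2i, a serum-free medium with LIF and inhibitors of MEK and GSK3, with 2 libraries each. The P53-/- ESCs were clones of the same FUCCI line in which CRISPR/Cas9 cut an exon shared by the Trp53 isoforms. The study used clones 1 and 2 for RNA-seq, and the table does not tell which clone gave which library, so that clone and replicate cannot be told apart. Libraries are numbered here by their order in the table.

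The kinetochore is the protein assembly that forms on centromeric chromatin and attaches each chromosome to spindle microtubules. Inner kinetochore proteins sit on nucleosomes that hold the histone variant CENP-A, outer kinetochore complexes bind the microtubule, and the passenger complex with the kinase Aurora B releases wrong attachments. The spindle checkpoint reads unattached kinetochores and holds back the anaphase-promoting complex (APC/C) by binding its activator Cdc20. Transcripts of many of these genes peak in G2 and mitosis and are low in G1, and their promoters are known for the cell cycle genes homology region (CHR), an element with a short core rich in T and A bases, and for CCAAT boxes upstream of it.

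The promoters of 6 members are shown because results below turn on these genes: Cenpa, Bub1, Ttk, Cdc20 and Plk1 are among those that rose in P53-/- 2i ESCs, and Cenpf differed most between 2i and serum. Sequences are from RefSeq on GRCm38.p6 and run 5′ to 3′ on the strand of the gene, from 170 bases before the annotated start to 30 after it. Capitals mark the CHR core TTTGAA (its other strand being TTCAAA), its variant with the letters TTTAAA, and the CCAAT box (which on the other strand would read ATTGG).
Cenpa (chr5:30666716-30666915, plus strand): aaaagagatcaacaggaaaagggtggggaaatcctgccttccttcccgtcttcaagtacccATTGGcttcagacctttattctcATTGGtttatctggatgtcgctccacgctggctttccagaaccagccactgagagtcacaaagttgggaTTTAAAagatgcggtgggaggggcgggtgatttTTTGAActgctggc
Bub1 (chr2:127831830-127832029, minus strand): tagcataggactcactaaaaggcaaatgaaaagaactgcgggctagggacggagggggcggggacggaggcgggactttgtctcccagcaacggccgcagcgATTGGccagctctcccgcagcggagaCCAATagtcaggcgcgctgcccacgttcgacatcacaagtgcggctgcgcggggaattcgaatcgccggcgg
Ttk (chr9:83834519-83834718, plus strand): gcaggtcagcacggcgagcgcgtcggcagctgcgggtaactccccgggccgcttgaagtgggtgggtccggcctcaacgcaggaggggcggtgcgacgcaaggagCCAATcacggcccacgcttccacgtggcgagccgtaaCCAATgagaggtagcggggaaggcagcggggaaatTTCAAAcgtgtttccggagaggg
Cdc20 (chr4:118437314-118437513, minus strand): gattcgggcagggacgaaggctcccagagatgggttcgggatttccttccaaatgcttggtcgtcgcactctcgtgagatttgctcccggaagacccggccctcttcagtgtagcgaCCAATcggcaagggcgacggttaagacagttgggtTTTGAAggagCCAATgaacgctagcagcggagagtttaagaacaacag
Plk1 (chr7:122159265-122159464, plus strand): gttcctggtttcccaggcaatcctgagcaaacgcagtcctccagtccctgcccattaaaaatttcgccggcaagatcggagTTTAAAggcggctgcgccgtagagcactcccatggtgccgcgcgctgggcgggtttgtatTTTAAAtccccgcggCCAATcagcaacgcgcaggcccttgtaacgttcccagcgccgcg
Cenpf (chr1:189688057-189688256, minus strand): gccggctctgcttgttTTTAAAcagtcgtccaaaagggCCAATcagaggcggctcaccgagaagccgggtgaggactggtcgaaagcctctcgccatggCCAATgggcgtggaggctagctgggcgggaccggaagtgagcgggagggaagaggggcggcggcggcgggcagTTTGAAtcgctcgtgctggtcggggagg

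Of the 42 members, 36 had an entry in the RefSeq promoter table, with 40 promoters among them. Nsl1, Incenp, Aurkb, Spc24, Ska1 and Zwilch had none. In the window from 250 bases before to 50 after the start, TTTGAA on either strand occurred in 17 of the 40 promoters (42.5%), against 17.9% of all 32851 promoters of the table. Counted by gene these were 16 of the 36 members, since the 2 promoters of Bub3 overlap and share the site. CCAAT on either strand occurred in 62.5% of the members' promoters and in 37.4% of all promoters, and TTTAAA, whose other strand reads the same, in 25% and 13.2%. E2F-type sites, searched on either strand with the letters TTTCCCGC or with the alternative letters TTTGGCGC, occurred in 12.5% of the members' promoters and in 1.56% of all promoters. None of these motifs contains another. Of the members that rose in P53-/- 2i ESCs, Bub1b, Ttk, Cdc20, Cenpa, Plk1 and Kif2c had the letters TTTGAA, and Bub1, Mad2l1 and Cenpq did not. Members outside that group had them as well, namely Bub3, Zw10, Cenpl, Cenpn, Ndc80, Spc25, Ska3, Aurka, Cdca8 and Cenpf. For Plk1 the letters began 31 bases after the start, just past the stretch printed. Such matches are descriptions of letters in a window, and no binding was measured here.

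All members passed the filter on low values, a mean FPKM of at least 0.5, which 12572 genes passed in all. FPKM divides a gene's fragments by transcript length and by the mapped fragments of the library, so that levels of different genes can be set side by side. In WT serum ESCs the 42 members ran from 5.96 FPKM for Cenpl to 171 for Birc5, and in WT 2i ESCs from 0.81 for Cenpl to 131 for Zwint. The median member lay at 15.4 FPKM in both WT 2i libraries, at 18.2 in both P53-/- 2i libraries, at 28.9 and 29.5 in WT serum, and at 36.1 and 35.2 in P53-/- serum. The summed level of the members was 980 and 1008 FPKM for WT and 1312 and 1183 for P53-/- in 2i, and 1775 and 1761 for WT and 1775 and 1729 for P53-/- in serum. By this sum the serum libraries did not separate by genotype, and the P53-/- 2i libraries lay above WT 2i and below serum. By the median member both P53-/- serum libraries lay above both WT serum libraries, so that sum and median differ there. These are bulk libraries, in which fewer cells with a transcript and less of it per cell cannot be told apart.

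**Figure D1:**
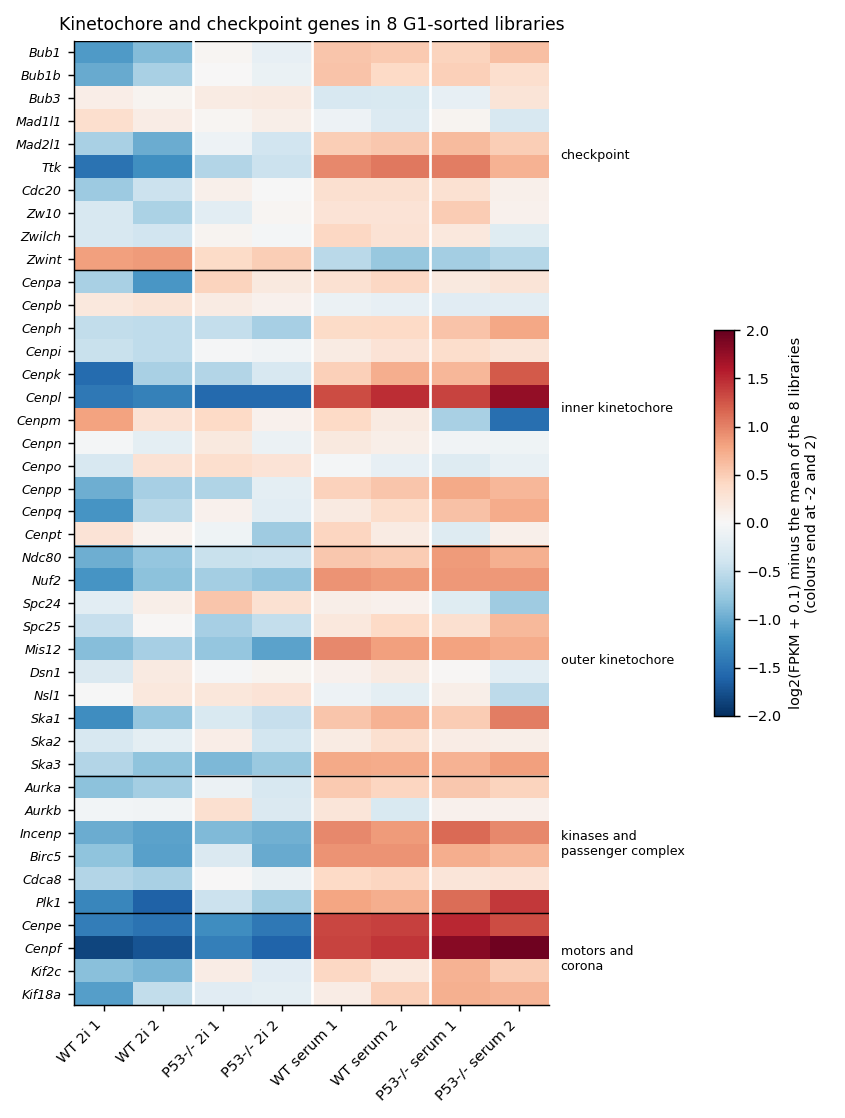
Heat map of log2(FPKM + 0.1) minus the mean of the 8 libraries, for the 42 members (rows, grouped by role) in the 8 libraries (columns); red is above and blue below the gene's own mean. Most members are blue in the WT 2i columns and red in the serum columns, while Zwint shows the opposite order.

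The targeted gene was low where the labels say so. Trp53 was at 26.8 and 33.7 FPKM for WT and 7.25 and 1.88 for P53-/- in 2i, and 77.6 and 75.1 for WT and 16.8 and 3.68 for P53-/- in serum. The P53-/- libraries lay below the WT libraries in both cultures, with log2 fold changes of -2.98 in 2i and -3.26 in serum (limma, adjusted p = 0.0547 and 0.150, the latter above the threshold of 0.1 and so not called). Cdkn1a, the P53 target that encodes P21, fell with log2 fold changes of -2.24 in 2i and -2.18 in serum (limma, adjusted p = 0.00218 and 0.00601). Estimated from the steps between low values, depth ran from 5200000 to 13000000 fragments per library, with 5200000 to 9700000 in 2i and 7000000 to 13000000 in serum. These estimates hold up to a factor common to all libraries, so that only their ratios can be relied on. Of 9 ESC markers none was at 0 in any library, Pou5f1 at 473 to 982 FPKM and Nanog at 249 to 452 among them. Utf1 was at 4.81 to 7.30 FPKM in 2i and 46.3 to 55.6 in serum. For P53-/- against WT in 2i, 8 of the 9 estimates were below 0 and 1 marker, Klf4, was called lower (-0.96). Of 6 fibroblast markers Col3a1 was at 0 in all 8 libraries and the others reached at most 0.501 FPKM except Thy1, which was at 7.55 to 10.5 in serum and 0.34 to 0.97 in 2i. Of 5 primitive endoderm markers 4 reached at most 1.09 FPKM, while Gata4 was at 2.40 and 1.28 for WT and 0.81 and 1.12 for P53-/- in 2i, and 0.83 and 0.61 for WT and 0.16 and 0.25 for P53-/- in serum. Gata4 was called higher in 2i than in serum in both genotypes (1.19 in WT and 1.81 in P53-/- ESCs), and its log2 difference between P53-/- and WT was -0.81 in 2i and -1.43 in serum, neither of them called. The part of such cells in the results was not tested.

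The first question was whether loss of P53 changes these genes in 2i ESCs. A gene was called at a fold change over 1.5 and an adjusted p under 0.1, the adjusted p being that of limma across all genes tested. Of the 42 members, 9 rose in P53-/- 2i ESCs and 0 fell, where 4.36% of all genes were called higher and 5.97% lower. The 9 were Bub1, Bub1b, Mad2l1, Ttk and Cdc20 of the checkpoint, Cenpa and Cenpq of the inner kinetochore, the kinase Plk1 and the motor Kif2c, and no outer kinetochore gene was among them. When a library was left out, the set of members that passed changed, and so did the share of all genes that passed. Such fits leave a group with a lone library. Over 19 alternative settings the log2 fold change in 2i ran from 0.41 to 0.76 for Mad2l1 and from 0.96 to 1.49 for Cenpa. Each of the 9 lost its call in at least 1 of these settings. Over the 42 members the median log2 fold change was 0.31 (0.02 over all genes), and 32 estimates were above 0. Both P53-/- 2i libraries lay above both WT 2i libraries for 25 members and below for 6, which held for 29% and 24.7% of all genes. Clones 1 and 2 are named for the P53-/- groups without a link to libraries, and whether the WT libraries came from separate cultures is not stated, so p-values measure only the spread between these libraries, which may in part be technical. When only the 4 libraries in 2i entered the limma fit, 0 members were called and 1.54% of all genes were. In that fit 16 members had an unadjusted p under 0.05, as had 19.9% of all genes, and the lowest adjusted p of a member was 0.116. The 9 calls therefore rest on an estimate of the spread shared with the serum libraries.

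Bub1, the kinase that marks centromeric histone H2A and recruits other checkpoint proteins, was at 14.7 and 17.8 FPKM for WT and 33.2 and 28.9 for P53-/- in 2i, and 47.7 and 46.7 for WT and 44.1 and 49.2 for P53-/- in serum. It rose 1.91-fold in P53-/- 2i ESCs, with a log2 fold change of 0.93 ± 0.14 (SE, n = 2 against 2, limma adjusted p = 0.0113), and the groups in 2i did not overlap. Bub1b encodes BubR1, which together with Mad2, Bub3 and Cdc20 forms the complex that inhibits the APC/C. Bub1b was at 32.3 and 41.8 FPKM for WT and 65.9 and 59.5 for P53-/- in 2i, and 97.3 and 86.1 for WT and 91.2 and 82.3 for P53-/- in serum. Its log2 fold change in 2i was 0.77 ± 0.15 (limma adjusted p = 0.0292), with the call lost in 4 of 19 alternative settings, and the serum groups overlapped.

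Ttk (Mps1), the kinase that starts checkpoint signalling, had the lowest levels of the checkpoint genes in WT 2i, at 8.33 and 9.94 FPKM. It was at 15.5 and 17.3 FPKM for P53-/- in 2i, and at 45.9 and 48.8 for WT and 48.0 and 38.2 for P53-/- in serum. Its rise in 2i came to 0.84 ± 0.15 on the log2 scale (limma adjusted p = 0.0225), and the P53-/- 2i libraries still lay well below both serum groups. Cdc20, the APC/C activator held by the checkpoint, was the most abundant checkpoint gene in serum: 78.1 and 95.2 FPKM for WT and 139 and 128 for P53-/- in 2i, and 161 in both libraries for WT and 158 and 137 for P53-/- in serum. The log2 fold change of Cdc20 in 2i was 0.63 ± 0.14 (limma adjusted p = 0.0407), and the call was lost in 5 of 19 alternative settings.

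Mad2l1 encodes Mad2, which closes around Cdc20 when a kinetochore is unattached. It was at 41.9 and 33.0 FPKM for WT and 61.5 and 50.8 for P53-/- in 2i, and 92.9 and 95.7 for WT and 102 and 93.0 for P53-/- in serum. Its log2 fold change in 2i was 0.59 ± 0.15 (limma adjusted p = 0.0649), at the edge of the 1.5-fold limit, and its call was lost in 12 of 19 alternative settings. Bub3, which docks Bub1 and BubR1 at the kinetochore, and Mad1l1, which carries Mad2 there, showed another pattern. Bub3 was at 40.01 and 37.6 FPKM for WT and 40.9 and 41.3 for P53-/- in 2i, and 29.0 and 29.3 for WT and 32.4 and 43.2 for P53-/- in serum. The difference for Bub3 in 2i was 0.08 (95% interval -0.26 to 0.43). For Mad1l1 the values were 34.3 and 30.3 FPKM for WT and 28.1 and 29.6 for P53-/- in 2i, and 25.3 and 22.6 for WT and 28.2 and 21.9 for P53-/- in serum, a difference in 2i of -0.16 (95% interval -0.51 to 0.19). Neither passed the test (limma adjusted p = 0.785 and 0.559), and in both the WT 2i level was above the WT serum level.

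The remaining checkpoint genes belong to the pathway that brings dynein to the kinetochore. Zw10 and Zwilch, subunits of the RZZ complex, had log2 fold changes of 0.39 and 0.36 in 2i and passed no threshold. Zwint, which links that complex to the outer kinetochore, was at 129 and 131 FPKM for WT and 94.9 and 102 for P53-/- in 2i, with a log2 fold change of -0.40 and a limma adjusted p of 0.0907, and so missed the 1.5-fold limit. Zwint was chosen here after its values were seen, as the member whose levels ran opposite to most others.

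**Figure D2:**
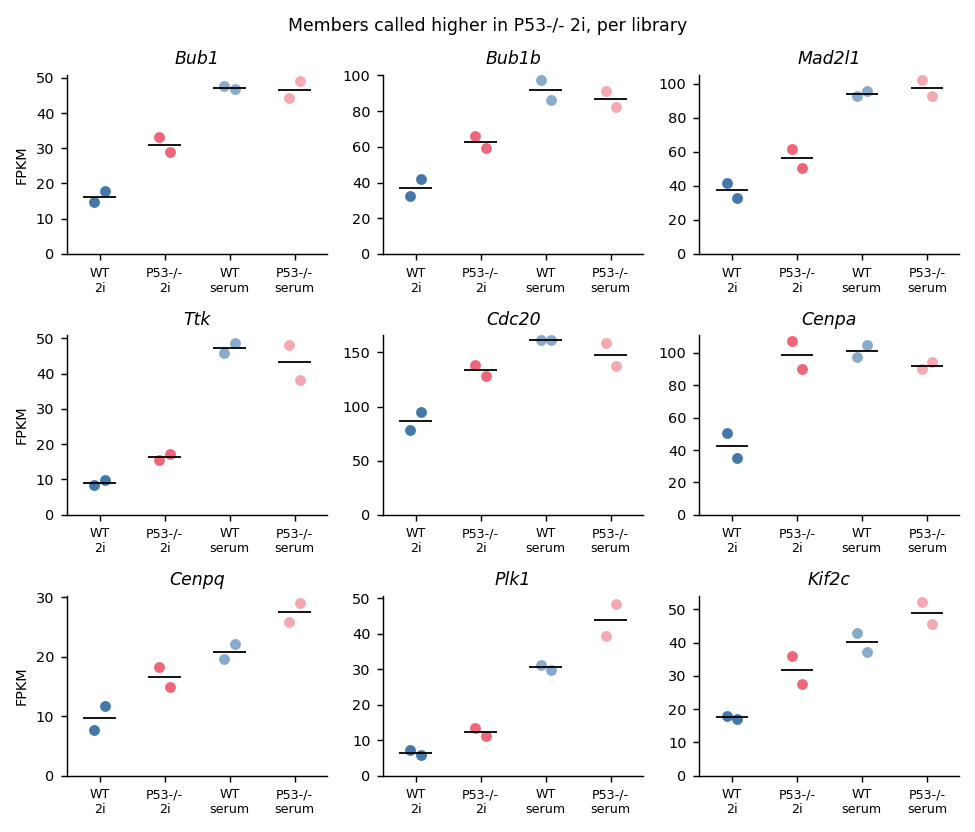
FPKM (linear axes from 0) of the 9 members called higher in P53-/- 2i, with 1 point per library and a line at the mean of each group. In every panel both P53-/- 2i points lie above both WT 2i points, and for Cenpa they reach the level of serum ESCs. For Cdc20 the higher P53-/- 2i point lies just above the lower P53-/- serum point.

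The largest rise in 2i among the members was that of Cenpa, the histone H3 variant that marks the centromere. Cenpa was at 50.3 and 34.8 FPKM for WT and 107 and 89.8 for P53-/- in 2i, and 97.6 and 105 for WT and 89.7 and 94.1 for P53-/- in serum. It rose 2.34-fold, a log2 fold change of 1.23 ± 0.18 (limma adjusted p = 0.0110), and P53-/- 2i and P53-/- serum libraries overlapped, with a difference of 0.09 (95% interval -0.33 to 0.52). Cenpq, a subunit of the CENP-O complex, was at 7.63 and 11.8 FPKM for WT and 18.3 and 14.9 for P53-/- in 2i, and 19.6 and 22.2 for WT and 25.9 and 29.1 for P53-/- in serum. Its log2 fold change in 2i of 0.79 ± 0.21 passed the test (limma adjusted p = 0.0680), and the call was lost in 10 of 19 alternative settings. For the other 10 inner kinetochore genes log2 fold changes in 2i ran from -0.57 (Cenpt, the subunit that reaches from chromatin to the Ndc80 complex) to 0.64 (Cenpk), and none was called. Cenpi, of the CENP-H/I/K/M group, had an adjusted p of 0.0763 by limma with a log2 fold change of 0.43.

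In the outer kinetochore 0 of 10 genes were called by limma in 2i, with 3 at an unadjusted p under 0.05 (25.2% of all genes) and a median log2 fold change of 0.14. For the 4 subunits of the Ndc80 complex, the main microtubule binder, the log2 fold change was 0.44 for Ndc80, 0.26 for Nuf2, 0.47 for Spc24 and -0.35 for Spc25, and none was called. Of these only Ndc80 had an adjusted p under 0.1 (limma, 0.0729), below 1.5-fold. Mis12, Dsn1 and Nsl1 of the complex that joins it to the inner kinetochore gave -0.17, 0.07 and 0.15, and Ska1, Ska2 and Ska3, which hold on to shrinking microtubule ends, gave 0.62, 0.13 and -0.13.

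Plk1, the kinase that acts on centrosomes, kinetochores and mitotic exit, was at 7.23 and 5.79 FPKM for WT and 13.4 and 11.1 for P53-/- in 2i, and 31.1 and 29.9 for WT and 39.3 and 48.5 for P53-/- in serum. It rose by 0.91 ± 0.17 on the log2 scale in 2i (limma adjusted p = 0.0235), and its P53-/- libraries also lay above WT in serum, where the difference of 0.52 did not pass (limma adjusted p = 0.310). Kif2c, the kinesin that takes microtubule ends apart, was at 17.97 and 17.1 FPKM for WT and 35.9 and 27.6 for P53-/- in 2i, and 43.0 and 37.3 for WT and 52.2 and 45.7 for P53-/- in serum, with a log2 fold change in 2i of 0.84 ± 0.16 (limma adjusted p = 0.0242). Aurka, the spindle pole kinase, and Cdca8 (borealin), a passenger complex subunit, had adjusted p of 0.0461 and 0.0253 by limma, but their log2 fold changes of 0.53 and 0.57 stayed under the 1.5-fold limit. The other passenger genes gave 0.08 for Aurkb, 0.11 for Incenp and 0.30 for Birc5, and the motor and corona genes Cenpe, Cenpf and Kif18a gave 0.09, 0.29 and 0.59, without a call.

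In serum the same loss of P53 gave 0 called members by limma (5 at an unadjusted p under 0.05, or 11.9%, against 11.3% of all genes), where 0.135% of all genes were called higher and 0.883% lower. The 5 became 4 with eBayes without trend (10.8% of all genes) and 7 with no filter on low values (9.47% of all genes). With values centred on chromosome medians they became 7 (13.0% of all genes). Leaving out a library also moved this number, with the share of all genes moving too, but such fits can leave a group with a lone library. Over the members the median log2 fold change in serum was 0.02, and 23 of 42 estimates were above 0. Both P53-/- serum libraries lay above both WT serum libraries for 9 members and below for 13, against 25.7% and 21.8% of all genes. For the 5 checkpoint genes that rose in 2i the serum differences were -0.02 for Bub1 (95% interval -0.34 to 0.30), -0.08 for Bub1b (-0.43 to 0.28), 0.05 for Mad2l1 (-0.31 to 0.40), -0.14 for Ttk (-0.50 to 0.22) and -0.13 for Cdc20 (-0.45 to 0.19). Cenpa gave -0.14 (95% interval -0.56 to 0.28), Bub3 0.36 (0.01 to 0.70) and Spc24 -0.58 (-1.02 to -0.15). In the other 3 members that rose in 2i both P53-/- serum libraries lay above both WT serum libraries, with differences of 0.40 for Cenpq (95% interval -0.10 to 0.89), 0.52 for Plk1 (0.12 to 0.91) and 0.28 for Kif2c (-0.08 to 0.65). Cenpf gave 0.50 (0.18 to 0.82), with a limma adjusted p of 0.245.

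The lowest adjusted p of a member in serum was that of Cenpm, of the CENP-H/I/K/M group, chosen here after its values were seen. Its FPKM was 35.5 and 24.7 for WT and 26.8 and 21.4 for P53-/- in 2i, and 26.6 and 22.9 for WT and 12.9 and 7.07 for P53-/- in serum. Both P53-/- serum libraries were below every other library, with a log2 fold change of -1.36 ± 0.29 (limma adjusted p = 0.125). Cenpm was called lower in serum when small RNA genes were left out of the fit, when values were centred on chromosome medians, and without library 1 of P53-/- serum.

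The difference between the effects in 2i and in serum was tested as an interaction. By limma 0 members passed, where 0.207% of all genes did, while 13 members (31.0%) had an unadjusted p under 0.05, against 13.1% of all genes. With a library left out that number ran from 8 (without library 1 of WT serum, 8.86% of all genes) to 16 (without library 2 of P53-/- 2i, 10.3% of all genes). The median interaction over the members was 0.29, and 0.01 over all genes, and without library 1 of WT 2i it was 0.088. The largest was that of Cenpa, at 1.37 ± 0.26 (limma adjusted p = 0.151), followed by Spc24 at 1.06 and Cenpm at 1.06. Ttk gave 0.98, Bub1 0.95, Bub1b 0.85, Cdc20 0.76 and Mad2l1 0.54, with adjusted p between 0.161 and 0.354 by limma. A difference in response between the cultures was therefore not shown for any single member at the threshold. Cenpa passed without library 1 of WT 2i, and Bub1 and Cenpa passed when values were centred on chromosome medians.

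**Figure D3:**
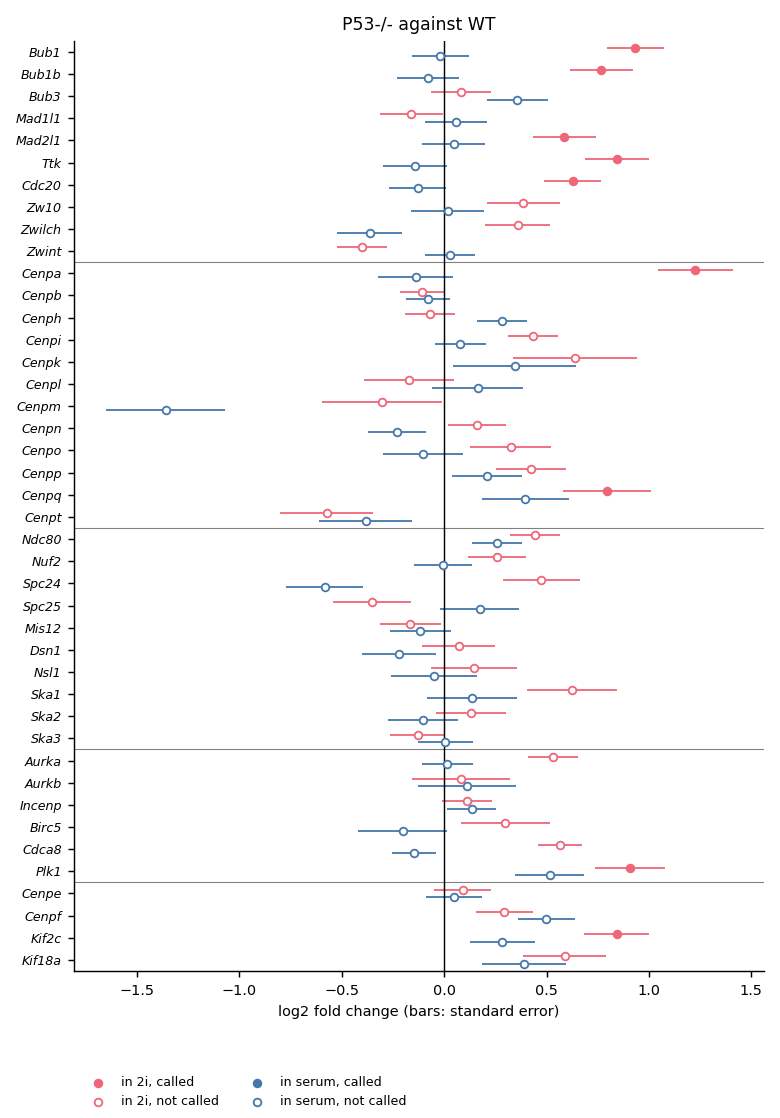
Log2 fold change of P53-/- against WT with its standard error for each of the 42 members, in 2i (red) and in serum (blue); filled points were called and open points were not. The filled points are the 9 members called in 2i, and none of the serum points is filled.

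The second question was how culture itself moves these genes. In WT ESCs 28 of the 42 members were lower in 2i than in serum and 1 was higher, where 28.6% of all genes were called lower and 27.2% higher, and the median log2 fold change was -1.12 (-0.02 over all genes). By role, 7 of 10 checkpoint genes fell, 7 of 12 of the inner kinetochore, 5 of 10 of the outer kinetochore, 5 of 6 of the kinases and passenger complex, and 4 of 4 motor and corona genes.

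Cenpf, a large protein of the fibrous corona that also binds the nuclear envelope, differed most: 3.01 and 3.23 FPKM for WT and 4.18 and 3.54 for P53-/- in 2i, and 28.1 and 29.6 for WT and 39.1 and 42.6 for P53-/- in serum. WT 2i was 8.99-fold lower than WT serum, at a log2 fold change of -3.17 ± 0.14 (limma adjusted p = 1.26e-05), and the groups were far apart. Cenpe, the kinesin that carries chromosomes to the spindle equator, was at 4.28 and 4.01 FPKM for WT and 4.72 and 4.14 for P53-/- in 2i, and 28.8 and 29.5 for WT and 32.3 and 28.1 for P53-/- in serum, with a log2 fold change of -2.78 ± 0.14 (limma adjusted p = 1.69e-05). In Cenpe the genotypes lay close together within each culture.

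Cenpl, the partner of CENP-N at the CENP-A nucleosome, was at 0.81 and 0.86 FPKM for WT and 0.73 in both libraries for P53-/- in 2i, and 5.96 and 6.68 for WT and 6.10 and 8.20 for P53-/- in serum, with a log2 fold change of -2.78 ± 0.22 in WT (limma adjusted p = 6.33e-05). It was the least abundant member in each library except library 2 of P53-/- serum, where Cenpm was lower. Ttk and Plk1, whose levels are given above, followed with -2.37 ± 0.15 and -2.22 ± 0.17 (limma adjusted p = 3.28e-05 and 5.27e-05). Incenp, the scaffold of the passenger complex, and Birc5 (survivin), another of its subunits, gave -1.94 and -1.84, and Nuf2 of the Ndc80 complex -1.87, whereas Aurkb, the passenger complex kinase, gave -0.04 with overlapping groups. Zwint was the member called higher in 2i, at 129 and 131 FPKM against 49.95 and 42.8 in WT serum, a 2.80-fold difference (log2 1.49 ± 0.12, limma adjusted p = 6.67e-05). Bub3, Mad1l1 and Cenpb had positive differences of 0.41, 0.43 and 0.38 under the 1.5-fold limit.

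In P53-/- ESCs 22 members were lower in 2i than in serum and 3 were higher, against 30.1% and 28% of all genes, with a median log2 fold change of -0.61. Lower in both genotypes were 21 members, as were 24.1% of all genes, among them Bub1, Mad2l1, Ttk, Cenpf, Cenpe and Cenpl. Bub1 was 1.503-fold lower in P53-/- ESCs, at the limit, and its call there was lost in 5 of 19 alternative settings. Bub1b, Cdc20, Zw10, Zwilch, Cenpa, Cenpi and Cdca8 were called lower in WT and not in P53-/- ESCs, and Spc25 the other way round. That a gene passed in 1 genotype and not in the other does not show that the genotypes differ, which is the interaction above. For Cdc20 the difference in P53-/- ESCs was -0.15 (95% interval -0.47 to 0.18), against -0.90 in WT. Higher in P53-/- 2i than in P53-/- serum were Zwint (1.06), Cenpm (1.32) and Spc24 (0.91).

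**Figure D4:**
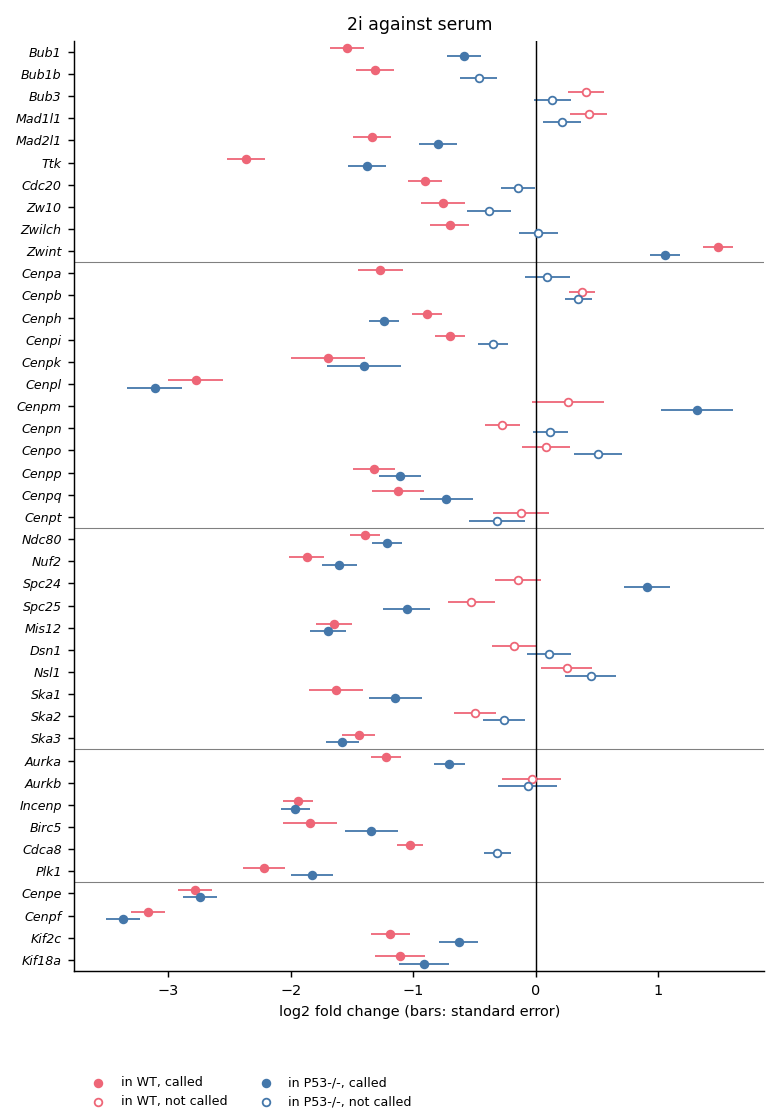
Log2 fold change of 2i against serum with its standard error for each of the 42 members, in P53-/- (blue) and in WT (red); filled points were called and open points were not. Cenpf, Cenpe and Cenpl lie farthest to the left in both genotypes, and Zwint lies to the right in both.

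The comparisons share libraries, since WT 2i stands in both the effect of P53 in 2i and the effect of culture in WT, so their values are only set side by side. For the 9 members that rose in P53-/- 2i, the log2 fold change of 2i against serum in WT was -1.54 for Bub1, -1.31 for Bub1b, -1.34 for Mad2l1, -2.37 for Ttk, -0.90 for Cdc20, -1.27 for Cenpa, -1.13 for Cenpq, -2.22 for Plk1 and -1.19 for Kif2c. Among the 5 members with the largest culture differences, Ttk and Plk1 rose in P53-/- 2i, and Cenpf, Cenpe and Cenpl gave 0.29, 0.09 and -0.17.

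Other genes of the mitotic programme were counted from lists that leave out the 42 members. Of 27 other kinetochore and centromere genes, 2 (7.41%, against 4.36% of all genes) rose in P53-/- 2i and 0 fell: Cenpw, the histone-fold partner of CENP-T (0.73), and Sgo2a, a shugoshin that protects centromeric cohesion (0.77). Of 22 mitotic entry genes 7 (31.8%) rose and 0 fell, with the largest log2 fold changes for Cdc25a (1.03), a phosphatase that activates CDKs, and for the cyclins Ccna2 (1.03) and Ccnb2 (0.89). Ccna2 also passed the interaction test, at 1.16 (limma adjusted p = 0.0435). Of 19 APC/C and mitotic exit genes 4 (21.1%) rose and 2 (10.5%, against 5.97% of all genes) fell, among them Pttg1 (1.57), which encodes securin, and Anapc10 (0.90) upward, and Fzr1 (-0.60), the G1 activator of the APC/C, downward. Anapc10 was also called higher in serum (0.77, limma adjusted p = 0.0784).

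Spindle motor and microtubule genes went both ways, with 5 of 27 (18.5%) higher and 4 (14.8%) lower in P53-/- 2i. Kif20a (0.91) and Ect2 (0.88), both needed for cytokinesis, rose, while Psrc1 (-3.61), Gtse1 (-1.55) and Ckap2 (-0.85) fell. Psrc1 also fell in serum (-2.80). Of 21 condensin, cohesin and chromosome structure genes, 3 (14.3%) rose and 0 fell in P53-/- 2i, with Ncapg, a condensin subunit, at 0.93. Medians of these 5 lists lay between 0.22 and 0.39, beside 0.31 for the members and 0.02 for all genes.

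**Figure D5:**
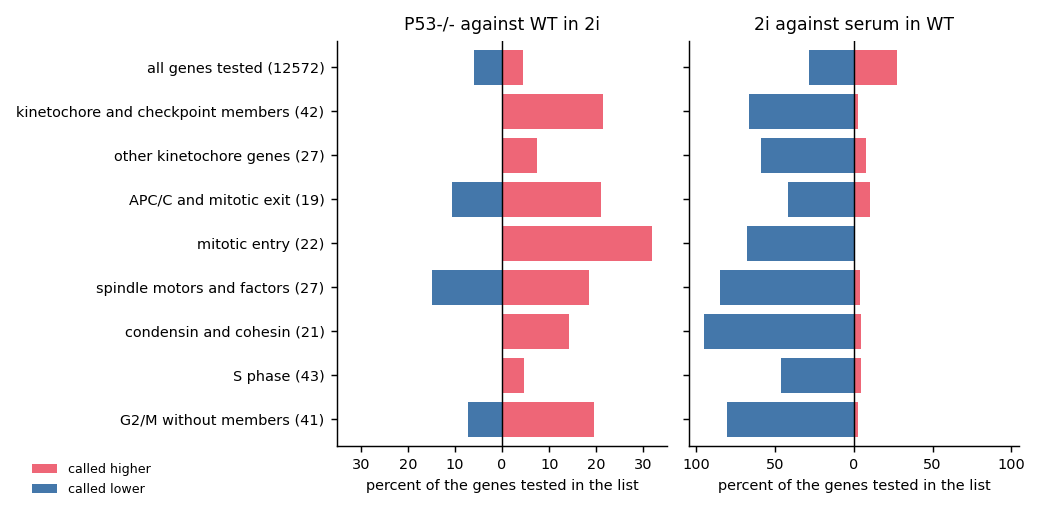
Percent of the genes tested that were called higher (red, to the right) or lower (blue, to the left), for all genes, for the 42 members and for the other lists (number of genes in brackets), for P53-/- against WT in 2i and for 2i against serum in WT. In 2i the members have no blue bar, and in the culture comparison each list has a longer blue than red bar.

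Since the cells were sorted in G1, lists of genes that peak in S phase and in G2/M were summed in each library. The 43 S-phase genes summed to 2590 and 2782 FPKM for WT and 3290 and 3156 for P53-/- in 2i, and 4154 and 4028 for WT and 4061 and 3949 for P53-/- in serum. The 41 G2/M genes, which leave out the members and share genes with the lists above, summed to 1401 and 1467, 1763 and 1566, 2738 and 2747, and 2679 and 2506 in the same order. Both sums thus moved in the order of the members' sum, and the part of the cells' position in the cycle in the differences of the members was not tested. Of the S-phase genes 2 (4.65%, near the 4.36% of all genes) rose and 0 fell in P53-/- 2i, namely Ccne2 (0.83), a cyclin of S-phase entry, and Gmnn (0.65), which encodes the licensing inhibitor geminin. Yet 38 of the 43 S-phase estimates were above 0, with a median of 0.26, and both P53-/- 2i libraries lay above both WT 2i libraries for 58.1% of them, against 29% of all genes. Of the G2/M genes 8 (19.5%) rose and 3 (7.32%) fell in P53-/- 2i, against 4.36% and 5.97% of all genes, with a median of 0.37. In WT 33 of them (80.5%) were lower in 2i than in serum and 1 (2.44%) was higher, against 28.6% and 27.2% of all genes.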

How the data were processed

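RNA-seq of G1-sorted R1 FUCCI ESCs (WT and P53-/-, serum and 2i, 2 libraries each) was analysed. Per the labels, total RNA was depleted of ribosomal RNA, primed at random and made into stranded libraries. The authors deposited FPKM values per gene symbol, already scaled by transcript length and mapped fragments. The submitters' processing notes name STAR, Cufflinks, DESeq2 and the build mm9, without versions or roles. P21-/- ESCs and their WT 2i controls were not analysed here.

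Columns were grouped by genotype and culture. Values were tested as log2(FPKM + 0.1) with limma 3.58.1 in R 4.3.3 (eBayes with trend, 1 fit of 4 groups) for 12572 genes, those whose mean FPKM was at least 0.5, with Benjamini-Hochberg adjustment over all of them. A fold change is therefore on the log2(FPKM + 0.1) scale, which understates changes of low genes. A call needed more than 1.5-fold and an adjusted p below 0.1, as the study's own analysis did. Exact tests of 2 against 2 cannot go below p = 0.33 and were not used. Small RNA genes took 92.7% to 99.4% of a library's FPKM sum. Depth comes from steps between low values of single-transcript genes of GENCODE M21, up to a factor common to all libraries, so that counting intervals are not given.

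The members and lists were chosen with earlier results of these data known. Full values are given for members called in a P53 comparison or the interaction, for Bub1, Bub1b, Bub3, Mad1l1, Mad2l1, Ttk and Cdc20, and for the 5 members with the largest called difference between 2i and serum in WT. From each other list at most 5 called genes with the largest change are named, and Trp53 and Cdkn1a check the knockout. Promoter sequences are RefSeq's for GRCm38.p6, matched by symbol, and no coordinates were converted between builds. Alternatives were other pseudocounts, filters and scalings, quantile normalization, a fit limited to the groups being compared, eBayes with no trend, a threshold of 0.05 on the adjusted p, no small RNA genes and each library left out in turn. Centring on chromosome medians was added after seeing the data.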

Additional observations from a re-analysis of the deposited data

How the results depend on the processing

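For P53-/- against WT in 2i, 0 members were called when only the compared groups entered the fit, and leaving out 1 library at a time gave 5 to 13, the 5 without library 1 of P53-/- 2i (Bub1, Cenpa, Kif2c and Ttk higher, Cenpt lower). Bub1, Cenpa and Kif2c lost their calls in 1 of 19 alternatives, Ttk and Plk1 in 2, Bub1b in 4, Cdc20 in 5, Cenpq in 10 and Mad2l1 in 12. In serum 1 member, Cenpm, was called without small RNA genes (1.52% of all genes) and with chromosome-median centring (1.35% of all genes). The serum median was -0.018 after quantile normalization and ran from -0.026 to 0.022 with a library left out. For the interaction 2 members were called with chromosome-median centring (0.549% of all genes), and its median ran from 0.088 (without library 1 of WT 2i) to 0.35. For 2i against serum in WT the median was -1.06 with a pseudocount of 1, -1.06 with median-ratio scaling and -0.998 after quantile normalization. With a library left out it ran from -1.14 to -0.98. Chromosome-median centring gave 27 called members there (Cenph, Zw10 and Zwilch lost, Ska2 gained), and 55.4% of all genes were called. For 2i against serum in P53-/- 24 members were called with a pseudocount of 1 (53.3% of all genes) and 23 with median-ratio scaling (58.1%). The count was 23 after quantile normalization (57.3%) and 27 with chromosome-median centring (57.7%). Bub1 lost its call there with the pseudocount of 1, median-ratio scaling and quantile normalization, and without library 2 of P53-/- 2i or of P53-/- serum. After quantile normalization Bub3 and Mad1l1 were also called higher in WT 2i than in WT serum.

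Estimates near 0 changed sign without a call on either side. Bub3 in 2i gave -0.028 after quantile normalization. The other sign changes were in serum. With a library left out, Bub1 ran from -0.097 to 0.060, Bub1b from -0.17 to 0.0087, Mad2l1 from -0.020 to 0.11, Ttk from -0.31 to 0.022 and Mad1l1 from -0.13 to 0.24. With chromosome-median centring Bub1 gave 0.048, Mad2l1 -0.051 and Mad1l1 -0.026, and quantile normalization gave -0.0076 for Mad2l1. The causes were not tested. Fits that leave out a library assume that the lone library varies like the others. No paired analysis was possible because the columns carry no replicate numbers. Depth is known only up to a factor common to all libraries, so no counting limit was set for low members such as Cenpl in 2i.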
